A study of Mus musculus with 6 samples.

Results

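Prss8, or prostasin, is a serine protease of epithelial cells, and it is described here together with 7 genes that act in the same protease network in liver and in epithelia. The 8 genes are the proteases Prss8, St14, Hpn, Tmprss6, Tmprss2 and Hgfac and the inhibitors Spint1 and Spint2, out of 18820 genes that the arrays measure with a probe set paired with a single gene. Prss8 was chosen by its difference between LERKO and CT liver in these same arrays, so its values are given as a description with no test. The other 7 genes were picked for their function around Prss8, with earlier results of these data known. All 8 have exactly 1 such probe set, and the signal that counts as reached throughout is 100, which is 6.64 on the log2 scale. Hgfac is included for its role, although it encodes a secreted protein and not a membrane protein.

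LERKO mice lack ERα, the estrogen receptor encoded by Esr1, in the liver. They are Alb-cre/ERα fl/fl, which means that both ERα alleles are floxed and that cre recombinase is driven by the albumin promoter of hepatocytes. CT mice are ERα fl/fl and carry no cre transgene, so the presence of cre and the loss of ERα cannot be told apart. The livers of 3 LERKO and 3 CT female mice on a C57BL/6J background were hybridised to Affymetrix Mouse Gene 1.1 ST arrays, with 1 mouse on each. The sources used here do not give the age of these mice. Liver cells in which the albumin promoter is silent keep their ERα, and the RNA comes from whole liver.

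Membrane-anchored serine proteases are made as inactive precursors and work in short cascades at the cell surface, where one protease activates the next and Kunitz-type inhibitors on the same cells hold them in check. In epithelia, prostasin and matriptase, encoded by St14, act together in barrier formation, and prostasin also raises the activity of the epithelial sodium channel. In hepatocytes, hepsin and the hepatocyte growth factor activator process growth factors, and the protease encoded by Tmprss6 restrains the iron hormone hepcidin.

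Per array, 9452 to 9865 of the 35556 probe sets were at or above 100, and pairs of arrays correlated at 0.97 to 0.99. In total 10633 probe sets were at or above it in at least 1 array and were kept for the comparison. Alb, Ttr and the other 5 genes of a list of 7 hepatocyte markers reached it in all 6 arrays, with a list mean between 12.85 and 12.93 in LERKO livers and between 12.90 and 12.99 in CT livers on the log2 scale. The Esr1 signal was 6.75, 7.06 and 6.77 in LERKO livers and 8.45, 8.78 and 8.29 in CT livers (log2), so each array carried the level of its label. A pair of arrays held RNA of other organs. CT replicate 3 had high levels of pancreas, squamous epithelium and muscle genes. LERKO replicate 2 had high levels of adrenal genes and, to a smaller extent than CT replicate 3, of muscle genes. Results are therefore also given without these arrays where they touch Prss8.

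Prss8 had the largest difference of the 8 genes. Its signal was 6.04, 6.09 and 5.96 in LERKO livers, against 7.43, 7.15 and 6.87 in CT livers (log2). In linear units this is 65.9, 68.0 and 62.3 in LERKO livers and 172.2, 141.6 and 117.3 in CT livers. No LERKO mouse overlapped with a CT mouse, as was the case for 758 of the 10633 kept probe sets with LERKO lower (7.13%). The gap between the highest LERKO and the lowest CT mouse was 0.79. It was wider than the range of 0.55 among CT mice and the range of 0.13 among LERKO mice. The mean was 6.03 ± 0.06 in LERKO and 7.15 ± 0.28 in CT (SD, n = 3 mice each), a log2 fold change of −1.12 (standard error 0.14 from limma), or 2.17-fold lower in LERKO liver. The difference was 4.05 times the larger of both SDs.

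Prss8 stood on both sides of the signal minimum. It reached 100 in 3 of 3 CT arrays and in 0 of 3 LERKO arrays, and 19 of the 10633 kept probe sets (0.179%) had that pattern. Since Prss8 was chosen by its difference in these arrays, this share is a description and not a test. The pattern also asks for levels near 100. Esr1, with a log2 fold change of −1.65, lacked it because it reached 100 in all 6 arrays. The lowest CT mouse lay 0.23 above the minimum and the highest LERKO mouse 0.56 below it on the log2 scale. Because Prss8 was kept through its CT arrays alone, the filter itself depends on the group in which the gene is higher. Among probe sets with lower levels in LERKO liver, it ranked 34 by the size of the difference.

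The spread of Prss8 was unequal between the groups. The SD of 0.28 among CT mice was above the median SD of 0.12 over the kept probe sets in CT livers, while the SD of 0.06 among LERKO mice was below the median of 0.10 in LERKO livers. CT replicate 1 had the highest level and CT replicate 3 the lowest level of the CT mice. Leaving out 1 array at a time gave log2 fold changes between −1.26, without CT replicate 3, and −0.98, without CT replicate 1. Without both CT replicate 3 and LERKO replicate 2 the value was −1.28.

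**Figure D1:**
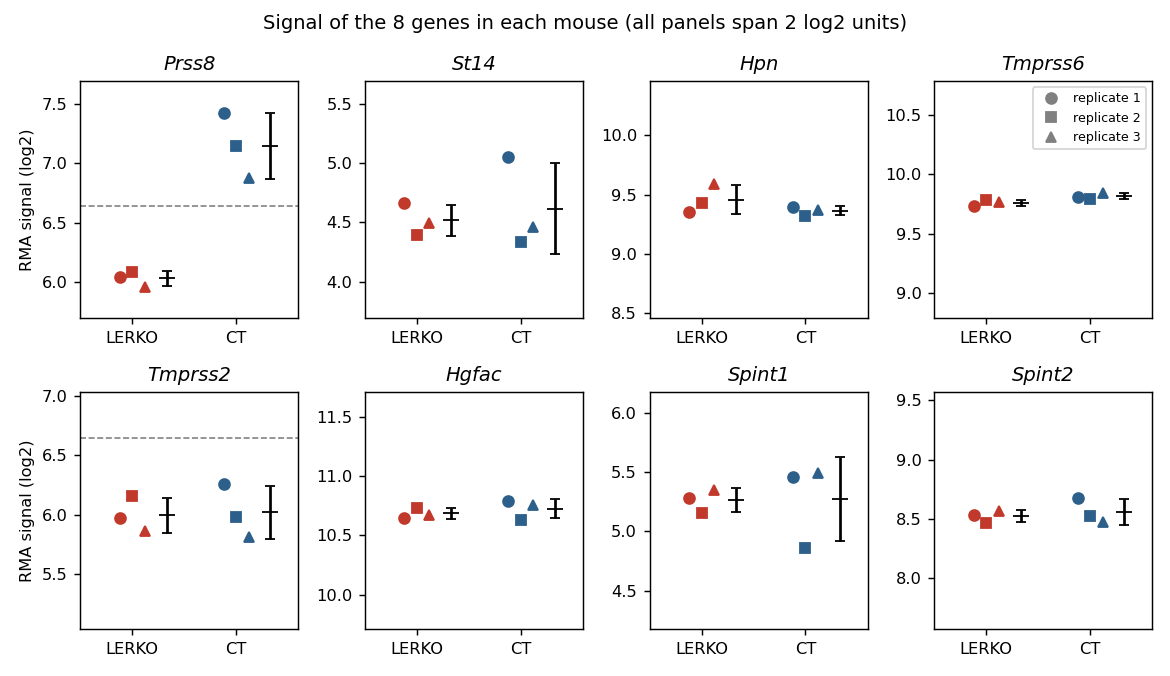
RMA signal on the log2 scale of the 8 genes, 1 point per mouse, with LERKO left of CT; the bar beside each group is the mean with the SD of 3 mice, and the dashed line marks a signal of 100 where it falls within the panel. Prss8 lies below the line in all LERKO mice and above it in all CT mice, Tmprss2 lies below it in all 6 mice, and for the other genes the groups lie within 0.10 of each other in their means.

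A second probe set names Prss8, but together with Kat8, an acetyltransferase of histones. Its signal was 7.23, 7.31 and 7.28 in LERKO livers and 7.33, 7.502 and 7.30 in CT livers (log2). LERKO replicate 2 lay above CT replicate 3, so the groups overlapped. Its log2 fold change was −0.11 (95% confidence interval −0.30 to 0.08, adjusted p = 0.800 from limma). In the GRCm38.p6 assembly the gene models of Prss8 and Kat8 lie side by side on chromosome 7 and share 122 bases. The array's annotation does not tell how much of this signal comes from Prss8, and this probe set was not used for it. Kat8 was singled out after its values were seen.

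The other proteases of the membrane did not follow Prss8. For St14, the matriptase that acts with prostasin in epithelia, the signal was 4.66, 4.39 and 4.49 in LERKO livers, against 5.05, 4.33 and 4.46 in CT livers (log2). It did not reach 100 in any array, and apart from CT replicate 1 the mice of both groups lay between 4.33 and 4.66. Its log2 fold change was −0.10 (95% confidence interval −0.57 to 0.38, adjusted p = 0.975 from limma over all 35556 probe sets). The sign of this difference rested on CT replicate 1, without which it was 0.12.

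Tmprss2, a protease of the airway and prostate epithelium, was the gene nearest to the signal minimum among those that missed it. Its levels were 5.97, 6.16 and 5.86 in LERKO livers and 6.26, 5.99 and 5.82 in CT livers (log2). The highest and the lowest mouse were both CT, so the LERKO mice lay inside the CT range. The log2 fold change was −0.02 (95% confidence interval −0.36 to 0.32, adjusted p = 0.992 from limma over all 35556 probe sets). It turned to 0.10 without CT replicate 1 and to 0.04 without LERKO replicate 3.

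Hpn encodes hepsin, a protease of the hepatocyte surface that can activate hepatocyte growth factor. It was measured at 9.35, 9.43 and 9.59 in LERKO livers and at 9.40, 9.32 and 9.37 in CT livers (log2). LERKO replicate 3 was the highest mouse, and LERKO replicate 1 lay within the CT range. With a log2 fold change of 0.09 it was the only member with a higher mean in LERKO liver (95% confidence interval −0.10 to 0.29, adjusted p = 0.822 from limma). Without LERKO replicate 3 the value was 0.03.

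Tmprss6, which cleaves hemojuvelin on hepatocytes, had the tightest values of all members. The signal was 9.73, 9.78 and 9.77 in LERKO livers, against 9.81, 9.79 and 9.84 in CT livers (log2). The groups did not overlap, with all LERKO mice lower, but the 6 mice together spanned only 0.11. Their means differed by a log2 fold change of −0.05 (95% confidence interval −0.20 to 0.09, adjusted p = 0.856 from limma). Of all kept probe sets, 7.13% had LERKO mice below CT mice without overlap and 5.91% had them above.

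Hgfac encodes the hepatocyte growth factor activator, which the liver secretes into plasma. Its signal was 10.65, 10.73 and 10.68 in LERKO livers and 10.79, 10.63 and 10.76 in CT livers (log2). Both the highest and the lowest mouse were CT. LERKO and CT differed by a log2 fold change of −0.04 (95% confidence interval −0.22 to 0.13, adjusted p = 0.919 from limma). This value was −0.088 without CT replicate 2 and −0.0095 without CT replicate 1.

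The inhibitors were as close between the groups as the proteases that they hold in check. Spint1 and Spint2 are Kunitz-type inhibitors anchored in the membrane, and both act on matriptase, on hepsin and on the hepatocyte growth factor activator. Spint1 did not reach 100 in any array, with 5.28, 5.16 and 5.35 in LERKO livers and 5.46, 4.86 and 5.49 in CT livers (log2). The LERKO mice lay between CT replicate 2 and the other CT mice, and the log2 fold change was −0.01 (95% confidence interval −0.45 to 0.43, adjusted p = 0.996 from limma over all 35556 probe sets). Its sign turned with arrays centred on the median and when CT replicate 1, CT replicate 3 or LERKO replicate 2 was left out, and it is read in neither direction. Spint2 was at 8.53, 8.47 and 8.57 in LERKO livers, against 8.68, 8.53 and 8.47 in CT livers (log2). CT replicate 1 was the highest mouse, and the other 5 mice of both groups lay between 8.47 and 8.57. The log2 fold change was −0.04 (95% confidence interval −0.23 to 0.15, adjusted p = 0.936 from limma).

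Taking the members by the signal minimum, 5 of 8 reached 100 in at least 1 array. Hpn, Tmprss6, Hgfac and Spint2 did so in all 6 arrays, Prss8 in the CT arrays only, and St14, Tmprss2 and Spint1 in none. Apart from Prss8, 6 members had lower and 1 had higher means in LERKO liver, with log2 fold changes from −0.10 to 0.09 beside a median of −0.01 over all kept probe sets. At an adjusted p under 0.05 from limma, 0 of the 4 kept members other than Prss8 and 0 of the 10633 kept probe sets were called (0%), while 742 of these probe sets had an unadjusted p under 0.05. The intervals allow for the 7 genes differences down to −0.57 and up to 0.43 on the log2 scale. The widest belong to the 3 genes below the signal minimum. CT replicate 1 had the highest level of the 6 mice for 5 of the 8 genes, namely Prss8, St14, Tmprss2, Hgfac and Spint2. How often this array was highest over all kept probe sets was not counted, so this is not read as a trait of these genes.

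Since Prss8 is a gene of epithelial cells, markers of bile duct epithelium and of other organs were read in the same arrays. Of 12 genes of bile duct epithelium, 10 had a probe set of their own and 1 of them, Sox9, a transcription factor of duct cells, reached a signal of 100. Sox9 did so in 2 CT arrays and in 0 LERKO arrays, with 6.52, 6.45 and 6.51 in LERKO livers and 6.79, 7.32 and 6.60 in CT livers (log2). It was thus kept through CT, the group in which it is higher. The keratins Krt7 and Krt19 and the adhesion molecule Epcam, which define these cells, lay below 100 in all 6 arrays. The mean of the 10 genes was 4.51, 4.62 and 4.70 in LERKO livers, against 4.94, 4.73 and 4.71 in CT livers (log2). LERKO mice thus lay below CT mice, by 0.01 at the nearest pair, and CT replicate 1 was highest. Single genes weighed on these means, so the order of the mice rests partly on them. The keratin Krt23 was at 6.43 in CT replicate 2, against 4.35 to 5.03 in the other mice (log2). The mucin Muc1 was at 5.84 in CT replicate 1, against 4.28 to 4.85 in the other mice. The genes of the list did not all go one way, since 7 had lower means in LERKO liver while Cldn4, Cldn7 and Krt19 had log2 fold changes of 0.28, 0.10 and 0.01. In whole liver, fewer cells of a type and less RNA per cell cannot be told apart, and the part of duct cells in the Prss8 difference was not tested.

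Markers of other organs were high in single arrays. Over 10 pancreas genes the mean was 3.54, 3.64 and 3.52 in LERKO livers and 3.59, 3.52 and 6.68 in CT livers (log2), and over 9 genes of squamous epithelium it was 3.61, 3.58 and 3.52 in LERKO livers and 3.35, 3.48 and 5.63 in CT livers. CT replicate 3, the high array in both lists, had the lowest Prss8 level of the CT mice. Over 7 muscle genes the mean was 4.06, 4.996 and 3.97 in LERKO livers and 3.81, 3.78 and 6.66 in CT livers (log2). For 7 adrenal genes it was 3.39, 8.90 and 3.70 in LERKO livers and 3.32, 3.39 and 3.36 in CT livers. LERKO replicate 2, the array with the adrenal genes, had a Prss8 level within 0.13 of the other LERKO mice.

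**Figure D2:**
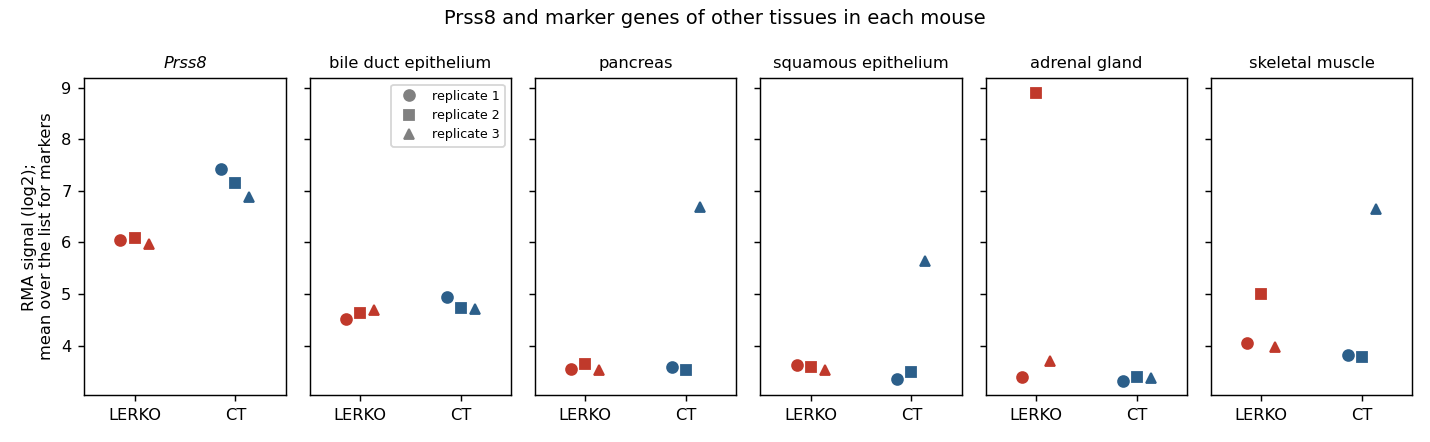
Prss8 signal and the mean signal over 5 marker lists (log2), 1 point per mouse, with LERKO left of CT and the replicate shown by the shape of the point. Pancreas, squamous epithelium and muscle markers are high in CT replicate 3, adrenal markers and, less so, muscle markers are high in LERKO replicate 2, and Prss8 and the bile duct list are highest in CT replicate 1.

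None of the listed relatives of Prss8 reached the signal minimum. Of 24 further membrane-anchored serine proteases, 22 had a probe set of their own, and 0 of them reached 100 in any array. Their values did not exceed 5.11 on the log2 scale, which was the value of Corin, the protease that activates natriuretic peptide precursors in the heart. Tmprss4, Tmprss11e and Tmprss13, which are proteases of surface epithelia, were among the genes that did not reach it. Of 13 further inhibitors, 11 had a probe set and 3 were kept. Tfpi2, a secreted Kunitz-type inhibitor, had 8.88 ± 0.22 in LERKO and 9.11 ± 0.05 in CT livers (SD, n = 3 each) with overlapping groups. Serpinc1, which encodes antithrombin, and Ambp, the precursor of bikunin, had log2 fold changes of −0.03 and −0.04.

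Among the targets of prostasin, the epithelial sodium channel was represented by its α subunit alone. Scnn1a was at 8.07, 8.27 and 8.05 in LERKO livers and at 8.41, 8.55 and 8.18 in CT livers (log2). LERKO replicate 2 lay above CT replicate 3, so the groups overlapped. Its log2 fold change was −0.25 (95% confidence interval −0.53 to 0.03, adjusted p = 0.709 from limma). Scnn1b and Scnn1g, the other subunits, did not reach 100 in any array. The same was true of Tlr4, a receptor of innate immunity that prostasin can cleave in mouse liver.

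Of 4 listed genes of the growth factor pathway downstream of hepsin and Hgfac, 3 were kept. Hgf, the growth factor itself, had 7.69 ± 0.13 in LERKO and 7.76 ± 0.17 in CT livers, and its receptor Met had 8.74 ± 0.03 in LERKO and 8.77 ± 0.04 in CT livers (log2; SD, n = 3 each). Mst1, a related growth factor that hepsin can also activate, had 9.72 ± 0.03 in LERKO livers, against 9.88 ± 0.19 in CT livers. Their log2 fold changes were −0.06, −0.03 and −0.16, and the groups overlapped for all 3. Mst1r, the receptor of Mst1, did not reach 100. Of 8 plasma proteases that act on these zymogens or near them, 6 were kept, with log2 fold changes from −0.13 for Habp2 to 0.07 for F11, a coagulation factor. F2, the thrombin precursor, and Plg, the plasmin precursor, had values of 0.01 and 0.0055.

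In the hepcidin pathway, on which Tmprss6 acts, Hjv had the largest difference. Hjv encodes hemojuvelin, the coreceptor that the Tmprss6 protease cleaves. Its signal was 10.34, 10.18 and 10.22 in LERKO livers, against 10.75, 10.79 and 10.37 in CT livers (log2). No LERKO mouse reached the CT range, by 0.03 at the nearest pair. In the same list, Bmpr1a and Acvr1 were also lower and Acvr2a was higher without overlap. Of all kept probe sets, 7.13% were lower without overlap and 5.91% were higher. The log2 fold change was −0.39 (95% confidence interval −0.70 to −0.09), with an unadjusted p of 0.0186 and an adjusted p of 0.703 from limma. Of all kept probe sets, 6.98% had an unadjusted p under 0.05 from limma, and Hjv was named as the largest difference of its list.

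Hamp, which encodes hepcidin, lay at 12.92, 13.03 and 13.13 in LERKO livers and at 13.00, 13.04 and 12.75 in CT livers (log2), with a log2 fold change of 0.10 and overlapping groups. All 9 genes of this list were kept, but Acvr1 reached 100 in the CT arrays only and so was kept through the group in which it is higher. The other 8 genes reached it in both groups, 3 with higher and 5 with lower means in LERKO liver and a median of −0.08, beside −0.01 over all kept probe sets. Acvr1, a receptor of bone morphogenetic proteins, and Bmp6, the ligand that signals iron load, had log2 fold changes of −0.18 and −0.17. Over all kept probe sets 0 of these genes passed an adjusted p of 0.05.

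Egfr and Cdh1, the epidermal growth factor receptor and E-cadherin, had the widest confidence intervals of the kept pathway genes. Egfr was at 10.17, 10.08 and 9.46 in LERKO livers and at 9.54, 10.73 and 10.99 in CT livers (log2). Only LERKO replicate 3 was lower than CT replicate 1, and the other CT mice were the highest. The log2 fold change of −0.52 had a 95% confidence interval from −1.46 to 0.42. For Cdh1 the signal was 7.20, 7.09 and 6.90 in LERKO livers and 7.09, 8.23 and 7.31 in CT livers. CT replicate 2 stood above the other mice, and the log2 fold change was −0.48 (95% confidence interval −1.17 to 0.20).

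**Figure D3:**
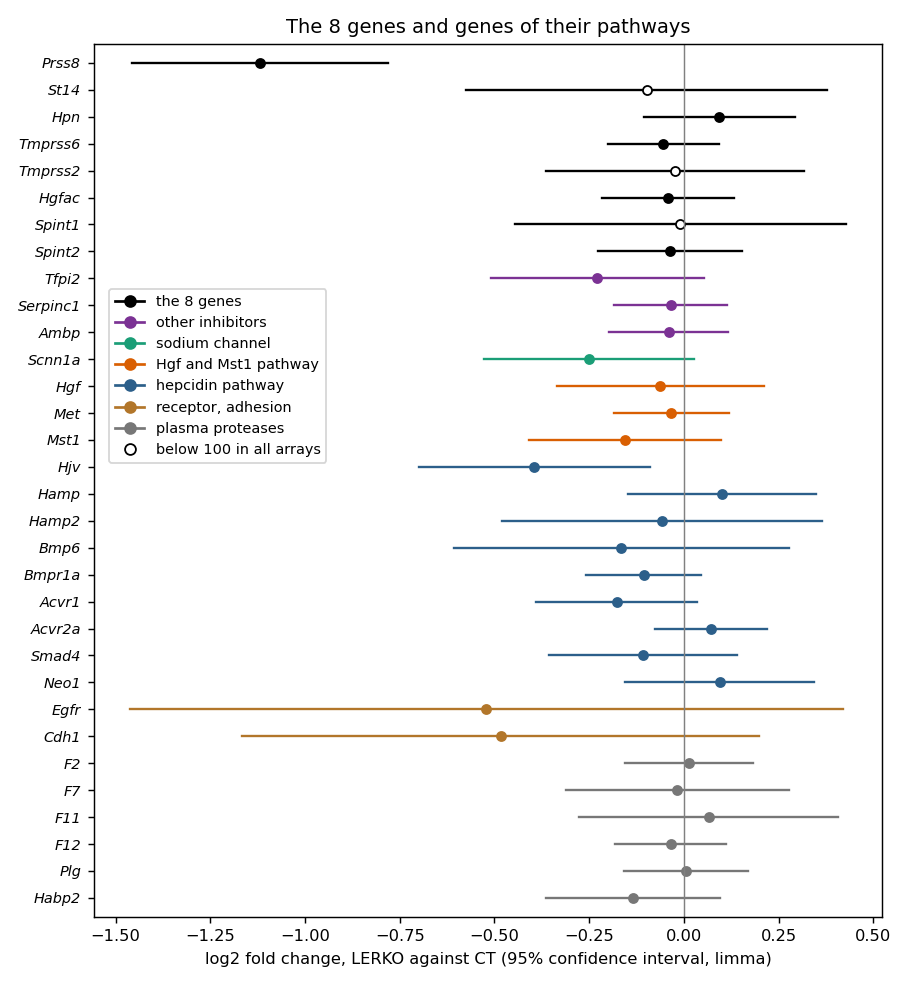
Log2 fold change (LERKO over CT) of the 8 genes and of the 24 kept genes of their pathways, with 95% confidence intervals from limma; open points are genes below a signal of 100 in all arrays, fitted without the signal filter. Prss8 lies at −1.12 and the other 7 genes lie between −0.10 and 0.09. Because Prss8 was chosen by its difference in these arrays, its interval is a description and not a test. Hjv is the pathway gene whose interval does not reach 0, with an adjusted p of 0.703 from limma. Of all kept probe sets, 6.98% had an unadjusted p under 0.05 from limma.

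To find which genes were patterned like Prss8 over the 6 mice, each gene was set relative to its own mean, and the mean absolute difference from Prss8 was taken over the arrays. Prss8 itself lay at −0.55, −0.50 and −0.63 in LERKO livers and at 0.84, 0.56 and 0.28 in CT livers on this log2 scale. The nearest of 7894 probe sets was Manf, a secreted neurotrophic factor, with a mean difference of 0.10. It lay at −0.51, −0.31 and −0.57 in LERKO livers and at 0.64, 0.56 and 0.18 in CT livers, with the CT mice in the same order as for Prss8. Hyou1, a chaperone, followed at 0.15, and its CT mice were in another order, with 0.40, 0.60 and 0.48. Sik1, a kinase, Asb7, an adaptor of ubiquitin ligases, and Pde4b, a phosphodiesterase that degrades cyclic AMP, came next with mean differences of 0.18, 0.19 and 0.22. The CT mice of Sik1 and Asb7 were also in the order of Prss8, while those of Pde4b were not. The median over all probe sets compared was 0.56. All 5 were lower in LERKO liver without overlap, which the likeness to Prss8 favours, so this is a description and not a test. Asb7 shared with Prss8 a signal of 100 in all CT arrays and in no LERKO array. Manf and Pde4b reached 100 in 2 CT arrays and in 0 LERKO arrays. Manf, Asb7 and Pde4b were thus kept through CT alone, the group in which they are higher.

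**Figure D4:**
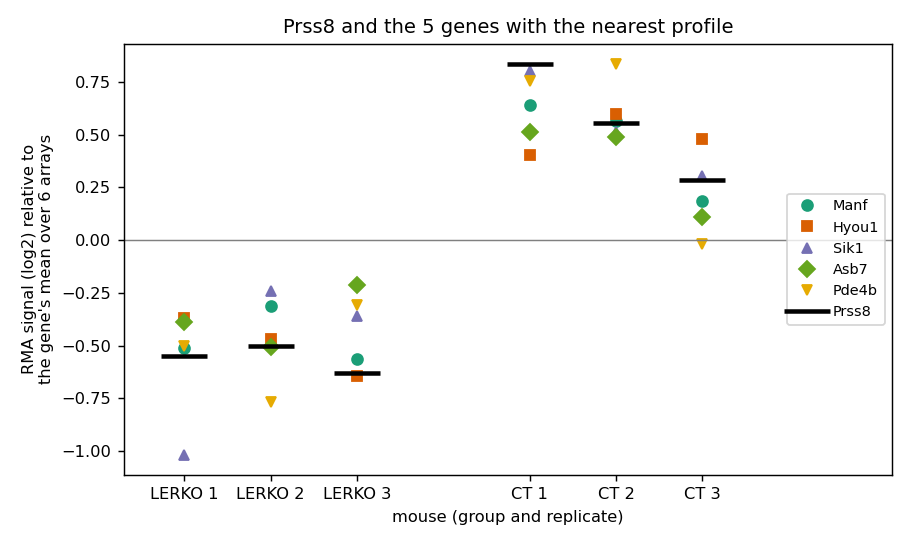
Signal of Prss8 (black bars) and of the 5 genes with the nearest profile (points), on the log2 scale relative to each gene's mean over the 6 arrays, for each LERKO and CT mouse. Prss8 lies at −0.55, −0.50 and −0.63 in LERKO mice and at 0.84, 0.56 and 0.28 in CT mice, and Manf lies closest to it.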

How the data were processed

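Liver RNA of 3 LERKO and 3 CT female mice was measured on Affymetrix Mouse Gene 1.1 ST arrays. The deposited values are log2 signals, which the authors made with RMA in the oligo package (version not given in the sources used here); RMA corrects background, quantile-normalizes the arrays and so pulls their distributions together. Probe sets were named from the platform annotation, with symbols updated through gene identifiers, of which 21185 of 21218 were found in the RefSeq table. A gene was read only from probe sets paired with it alone. The study's methods remove genes below 100 across all samples. This was read as keeping probe sets that reached a signal of 100 in at least 1 array. The other reading, 100 in every array, is among the alternatives given below. The genotypes were fitted in limma 3.58.1 (lmFit, eBayes, R 4.3.3), two-sided, with Benjamini-Hochberg adjustment over all kept probe sets at 0.05. The study reports 3 significant genes at a false discovery rate of 5%, Esr1 among them, and this fit called 0 probe sets. Under the other reading of the filter, 3 of 8849 probe sets were called, all lower in LERKO liver. Prss8 is not tested under that reading. Whether these 3 are the genes of the study was not checked. Members below the filter of the main fit were read from the same model fitted to all probe sets. With 3 mice a group, the smallest exact permutation p is 0.1.

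The members and lists were chosen with earlier results of these data known. Named genes are the members, Esr1, up to 4 genes of largest difference per pathway list with direct substrates of a member, marker genes and the 5 genes nearest to Prss8. Others are named as examples of a list. F2rl1 and some other listed genes have no single-gene probe set and are not analysed here. The fit was checked on simulated data. The labels do not say whether mice were littermates. The p-values treat the mice as independent, which could not be checked, and the number of arrays limits precision.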

Additional observations from a re-analysis of the deposited data

How the results depend on the processing

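In the 15 alternatives that measured it, Prss8 had log2 fold changes between −1.28 and −0.98. It dropped out under the filter that asks for 100 in every array. With no overlap between the groups, leaving arrays out could not change its direction. A replicate block, and alternatives that alter only the test or the probe sets tested, repeat the main value of −1.12. The range thus describes the size of the difference and is no test of its direction. Of the 106 values of the other 7 genes under the alternatives, 97 kept their direction and 0 reached an adjusted p of 0.05 from limma. Part of the 97 repeat the main value for the same reason and could not change direction. The 9 changes came from leaving arrays out or from centring arrays on the median. The direction changed for St14, Tmprss2, Spint1 and Spint2. With 1 array left out, the log2 fold change of St14 ranged from −0.24 to 0.12, that of Tmprss2 from −0.13 to 0.10, that of Spint1 from −0.21 to 0.10 and that of Spint2 from −0.079 to 0.023. Spint1 was at 0.0020 with arrays centred on the median and at 0.15 without both CT replicate 3 and LERKO replicate 2.

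Of all probe sets, 3 were lower at an adjusted p under 0.05 under that filter (8849 tested) and 1, Esr1, with an intensity trend. With 1 array left out, 0 to 1 were higher, the 1 without LERKO replicate 3. The number at an unadjusted p under 0.05 ranged from 414, without LERKO replicate 1, to 1183, without CT replicate 3. It was 1739 with no filter, where 35556 were tested, and 1136 without both CT replicate 3 and LERKO replicate 2. The causes of these shifts were not tested, apart from the larger or smaller number of probe sets tested. Same-numbered mice did not deviate together (correlations of −0.16, −0.07 and −0.14; 0 of 6 mice were nearest to their own number), and with the replicate block the number was 574 and Prss8 had −1.12. No member had a further single-gene probe set to compare.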
